A study of Mus musculus with 8 samples.

Results

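Keratin genes and Bpifb1, a gene for a secreted epithelial protein, were followed array by array in eye tissue from mice of 2 ages. The members are 9 genes: Bpifb1, the keratins of stratified surface epithelia Krt5, Krt14, Krt15, Krt12 and Krt13, and Krt8, Krt18 and Krt19, which are grouped here as keratins of simple epithelia. They were taken by name, with every probe set that the array annotation assigns to one of them alone, which gave 17 of 45037 probe sets and 9 of 18193 measured genes. The set was chosen by the old against young log2 difference of Bpifb1 and by the array values of the keratins, which were already known. The old against young values of the members are therefore given as a description without a test. The retinal pigment epithelium (RPE), with the choroid behind it, came from male C57BL/6 mice, 4 arrays from young animals at 4 months of age and 4 from old animals at 26 months. For each array the RNA of 4 RPE/choroids, taken from 2 animals, was pooled. A replicate is thus a pair of mice, and no animal was measured singly. No treatment or genetic change is given for either age. The question put to these genes was whether Bpifb1 moves with the keratins of the ocular surface or with those of simple epithelia.

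Keratins are the intermediate filament proteins of epithelial cells, and each filament is built from pairs of a type I and a type II chain. Krt5 (type II) with Krt14 (type I) marks the basal layer of stratified epithelia, Krt15 (type I) is a further basal chain, Krt12 (type I) is the keratin of the corneal epithelium, and Krt13 (type I) is found in the upper layers of moist stratified epithelia such as the conjunctiva. Krt8 (type II) and Krt18 (type I) form the filaments of single-layered epithelia, the RPE among them, and Krt19 (type I) is found in ducts and simple epithelia and also in some stratified ones. Bpifb1 belongs to the family of bactericidal/permeability-increasing (BPI) fold proteins and is secreted by mucosal and glandular epithelia, best known from the airways. In the mouse genome it lies among other genes of its family on chromosome 2. Krt8 and Krt18 are neighbours on chromosome 15, where Krt5 lies as well, and Krt13, Krt15 and Krt19 follow each other on chromosome 11, which also holds Krt12 and Krt14.

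A pair of arrays stood apart in the surface keratins. In young replicate 4 and in old replicate 4 Krt12 was the highest of its age, 29.5-fold above the mean of the other young arrays and 5.21-fold above that of the other old arrays (means of log2 intensities). Of all 18193 genes, 23 (0.126%) were over 2-fold above the other arrays of their age in both of these arrays, beside 0.275% in young replicate 4 and 0.671% in old replicate 4 counted alone, and 5 of the 23 were keratins: Krt12, Krt13, Krt15, Krt6b and Krt7. The labels give the number 4 to both arrays but do not tie young to old samples. Values that rest on these arrays are given with and without them. Correlations of log2 intensity across probe sets were at least 0.9915 within an age. For young replicate 4 with the other young arrays they were 0.9918 to 0.9953, so this measure does not show differences in a small share of genes. The tissue label was borne out by the RPE list, as Rpe65, the isomerase of the visual cycle, ran from 10929 to 12118 in young and from 10807 to 11414 in old arrays.

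Bpifb1 was higher in every old array than in any young array. By its brighter probe set, the intensity was 111, 136, 142 and 176 in young replicates 1 to 4 and 949, 1529, 1499 and 1436 in old replicates 1 to 4. Old replicate 1 was the lowest of the old arrays and young replicate 4 the highest of the young, and the ages were far from overlapping. The group means were 141 ± 26.9 (SD, n = 4) in young and 1353 ± 272 (SD, n = 4) in old animals, and the difference in mean log2 intensity was 3.25 (limma standard error 0.18), or 9.53-fold. The other probe set of Bpifb1 ranged over 78.1 to 113 at the young and 469 to 784 at the old age, a log2 difference of 2.75 (standard error 0.17). Both probe sets had their lowest old value in old replicate 1. Of all genes, 5 had a larger rise than Bpifb1. Without young replicate 4 and old replicate 4 the log2 difference was 3.33 (standard error 0.19).

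**Figure D1:**
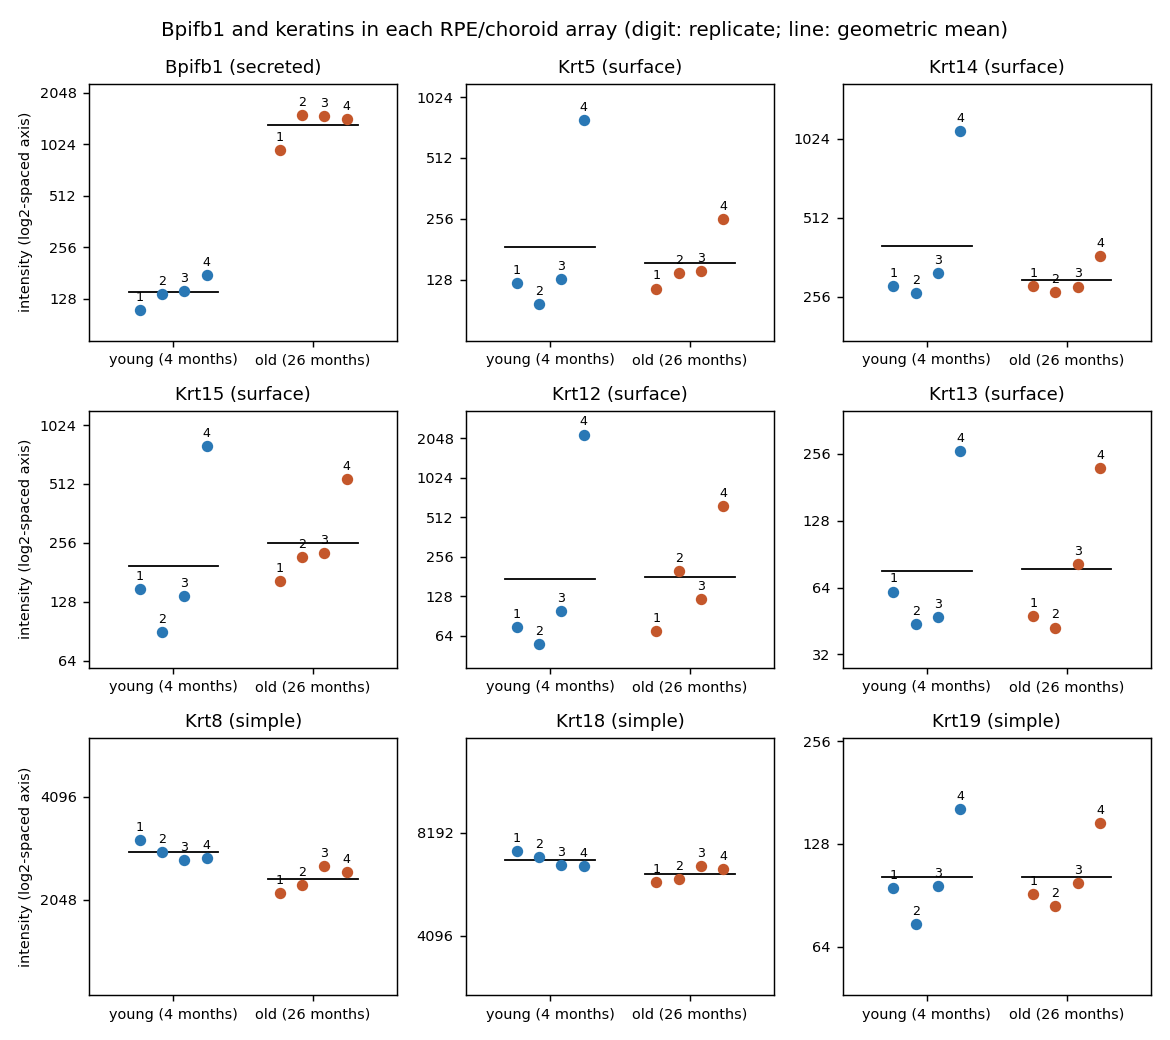
Intensity of each member gene by its brightest probe set (vertical axis, log2-spaced) in 4 young and 4 old arrays, with the replicate number beside each point and a line at the geometric mean of the age. The 4 young arrays of Bpifb1 lie at 111 to 176 and the 4 old ones at 949 to 1529, whereas the surface keratins are high in replicate 4 of both ages.

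The surface keratins differed more among arrays of one age than between the ages. Krt12 had an intensity of 74.6, 55.5, 98.5 and 2184 in young replicates 1 to 4 and of 69.8, 199, 122 and 621 in old replicates 1 to 4. Replicate 4 was the highest in both ages and the young one was the higher, while the remaining arrays of the ages overlapped. The mean log2 difference between old and young was 0.06 (standard error 1.13). By the variation of log2 intensity within ages, Krt12 ranked 1 of 18193 genes. Its array values were known when the set was chosen, so the rank is a description only.

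Krt5 read 123, 97.2, 129 and 787 in young and 116, 138, 142 and 256 in old arrays, a log2 difference of -0.27 (standard error 0.60). Its partner Krt14 read 281, 264, 314 and 1094 in young and 281, 266, 280 and 367 in old arrays, a log2 difference of -0.43 (standard error 0.40). In both genes replicate 4 was the highest of its age, and the excess over the other arrays was larger in the young array (6.80-fold for Krt5 and 3.83-fold for Krt14) than in the old one (1.95-fold and 1.33-fold). Krt15 read 149, 89.3, 137 and 798 in young and 163, 217, 227 and 539 in old arrays, a log2 difference of 0.39 (standard error 0.63). Krt13 read 61.4, 43.9, 47.1 and 263 in young and 47.5, 42.3, 81.6 and 220 in old arrays, a log2 difference of 0.03 (standard error 0.65). For these 2 genes too replicate 4 was the highest of each age. The ages of Krt13 overlapped among replicates 1 to 3 as well, while those of Krt15 overlapped only through young replicate 4.

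Probe sets of one gene did not always show the excess in replicate 4. The second probe set of Krt12 followed the first, with 1230 in young replicate 4 against 36.1 to 58.9 in young replicates 1 to 3, and 316 in old replicate 4 against 40.7 to 103 in old replicates 1 to 3. Of the other probe sets of Krt14, one was at 251 in young replicate 4 and at 71.7 to 90.2 in the other young arrays but had no excess in old replicate 4 (85.5 against 75.1 to 89.7), and one was flat at 36.6 to 47.0 in all 8 arrays. The other probe sets of Krt13 were dim, with highest values of 77.6 and 41.2, both in young replicate 4. Both were also highest among the old in old replicate 4, at 70.5 and 39.2. A further probe set that matches Krt14 and Krt17 together was not used. Detection calls were not used here, so it is not known which of the lowest values lie above background.

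The difference of the surface keratins between the ages depended on the 2 arrays. Without young replicate 4 and old replicate 4 the log2 difference was 0.69 (standard error 0.36) for Krt12, 0.71 (standard error 0.21) for Krt15, 0.18 (standard error 0.13) for Krt5, 0.12 (standard error 0.24) for Krt13 and -0.05 (standard error 0.09) for Krt14. Leaving out young replicate 4 alone took Krt12 to 1.28 and leaving out old replicate 4 alone took it to -0.53. All of these values are below that of Bpifb1.

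**Figure D2:**
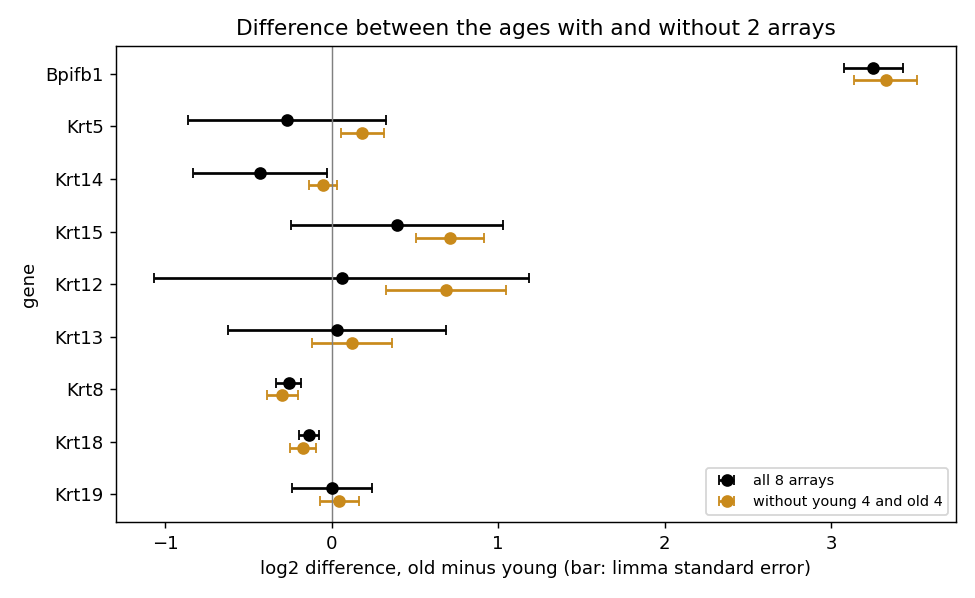
Difference in mean log2 intensity, old minus young (horizontal axis), for each member gene with all 8 arrays and without young replicate 4 and old replicate 4, with bars for the limma standard error. Bpifb1 lies at 3.25 and 3.33, and the keratins lie between -0.43 and 0.71.

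Among the simple keratins, Krt8 was lower in every old array than in any young array. Its intensity was 3062, 2830, 2686 and 2717 in young and 2148, 2262, 2576 and 2472 in old arrays, and the means were 2823 ± 170.4 (SD, n = 4) and 2364 ± 195 (SD, n = 4). The log2 difference was -0.26 (standard error 0.07), and the other 2 probe sets of Krt8 gave -0.28 (standard error 0.08) and -0.33 (standard error 0.07), also without overlap. Krt18, the partner of Krt8, read 7234, 6975, 6569 and 6535 in young and 5891, 5992, 6543 and 6404 in old arrays. The ages overlapped only through old replicate 3, which was just above young replicate 4, and the log2 difference was -0.14 (standard error 0.06). Krt8 and Krt18 had no excess in replicate 4 of either age, with 0.952-fold and 0.944-fold of the other young arrays and 1.06-fold and 1.04-fold of the other old arrays.

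Krt19 was highest in replicate 4 of each age, as the surface keratins were. It read 95.2, 74.8, 96.2 and 162 in young and 91.0, 84.4, 98.1 and 148 in old arrays, and replicate 4 stood at 1.83-fold and 1.62-fold of the other arrays of its age. The log2 difference between the ages was 0.00 (standard error 0.24). Its place among the simple keratins was fixed by name, and the ages overlapped.

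Of the 17 member probe sets, 5 passed an adjusted p under 0.05 in the limma fit over all probe sets, namely both of Bpifb1 (higher) and all 3 of Krt8 (lower), where 18.0% of all probe sets passed in either direction. The ages did not overlap in the same 5, against 24.3% of all probe sets. At a change of more than 2-fold with adjusted p below 0.01 there were 2, both of Bpifb1, against 0.844% of all probe sets. Nothing is read from these counts, since the members were chosen with this contrast known. Without young replicate 4 and old replicate 4, 3 member probe sets passed an adjusted p under 0.05, both of Bpifb1 and 1 of Krt8.

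Whether Bpifb1 followed either class among arrays of the same age was described by deviations from the mean of each age, which leave out the difference between the ages. The array values of the keratins were known when the set was chosen, so no test is given. Bpifb1 deviated by -0.33, -0.03, 0.03 and 0.34 on the log2 scale in young replicates 1 to 4 and by -0.49, 0.20, 0.17 and 0.11 in old replicates 1 to 4. The mean of the 5 surface keratins deviated by -0.60, -1.02, -0.58 and 2.20 and by -0.65, -0.26, -0.18 and 1.08 in the same arrays. Bpifb1 and the mean of the surface keratins were thus both highest in young replicate 4 and both lowest among the old in old replicate 1. Krt13 and Krt14, however, were lowest among the old in old replicate 2. Among the young, Bpifb1 was lowest in replicate 1 and all 5 surface keratins in replicate 2. In old replicate 4, where the surface keratins peaked, Bpifb1 was below old replicates 2 and 3. The mean of the 3 simple keratins deviated by 0.03, -0.14, -0.07 and 0.18 in young and by -0.13, -0.13, 0.05 and 0.21 in old arrays. Its high values in replicate 4 came mostly from Krt19, at 0.66 in young and 0.52 in old replicate 4. Krt8 and Krt18 were at -0.05 and -0.06 in young replicate 4 and at 0.07 and 0.05 in old replicate 4. Among the young, both were highest in replicate 1, where Bpifb1 was lowest.

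Over the 8 arrays the correlation of these deviations with those of Bpifb1 was highest for Krt12, with Pearson's r of 0.686 and Spearman's rho of 0.857. For Krt5, Krt15, Krt14 and Krt13 r was 0.602, 0.590, 0.544 and 0.509, with rho of 0.738, 0.786, 0.476 and 0.357. For the simple keratins r was 0.124 for Krt8, -0.0536 for Krt18 and 0.455 for Krt19, with rho of 0.167, -0.0476 and 0.50. Whether r differed between the classes was not tested.

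Without the 2 arrays farthest from the median deviation of Bpifb1, which were old replicate 1 and young replicate 1, r over the remaining 6 arrays was 0.839 for Krt5, 0.851 for Krt14, 0.791 for Krt15, 0.809 for Krt12, 0.602 for Krt13, -0.0949 for Krt8, -0.338 for Krt18 and 0.629 for Krt19. For these values the deviations were still taken from the mean of all 4 arrays of the age. In the next ones they were taken from the mean of the remaining arrays, so the 2 sets are not the same measure. Without young replicate 4 and old replicate 4 r was 0.738 for Krt12, 0.436 for Krt5, 0.295 for Krt15, 0.0638 for Krt13 and -0.0448 for Krt14, so that for Krt13 and Krt14 the relation rested on these arrays. Over the same 6 arrays r was 0.259 for Krt8, 0.15 for Krt18 and -0.143 for Krt19, which was at 0.455 over all 8 arrays. Krt8 and Krt18 then lay above Krt13 and Krt14, but with 3 arrays per age such values do not order the genes. The sizes differed as well. In young replicate 4 Bpifb1 stood 1.36-fold above the other young arrays where Krt12 stood 29.5-fold above them, and in old replicate 4 Bpifb1 stood 1.11-fold above the other old arrays. Old replicate 1 had a Krt12 intensity of 69.8, within the range of young replicates 1 to 3, beside a Bpifb1 intensity of 949.

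**Figure D3:**
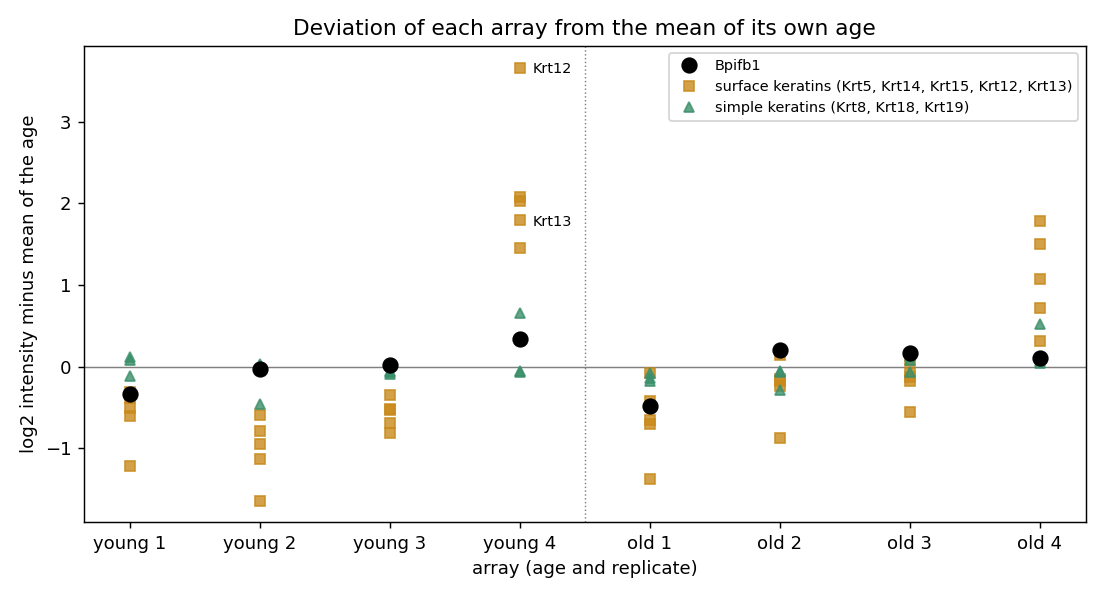
Deviation of log2 intensity from the mean of the age (vertical axis) in each of 8 arrays (horizontal axis) for Bpifb1, the 5 surface keratins and the 3 simple keratins. The surface keratins reach 3.66 (Krt12) in young replicate 4, where Bpifb1 is at 0.34.

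Genes with an array pattern most like that of Bpifb1 were Csf2ra, a chain of the receptor for granulocyte-macrophage colony stimulating factor (r = 0.997 over 8 arrays), Rnf149, a ubiquitin ligase (0.996), Ccdc92 (0.994), Anxa1, annexin A1 (0.993), and Ctsk, the protease cathepsin K (0.993), out of 390 genes above the median level with an SD of at least 0.5 over the arrays. Csf2ra ranged over 772 to 926 at the young and 1494 to 1772 at the old age, with old replicate 1 the lowest of the old. Because Bpifb1 and these genes separate the ages, such values of r carry the difference between young and old and are given as a description. For Krt12 the 5 most alike were Calml3, a calmodulin-like protein of stratified epithelia (0.972), Krt6a (0.972), Krt5 (0.967), Krt15 (0.966) and Krt6b (0.962). All 5 were highest in replicate 4 of both ages. They were picked by likeness to Krt12, which varied most through these arrays, so nothing is read from this. Krt6b, for one, read 1548 in young replicate 4 and 1223 in old replicate 4 and 145 to 338 elsewhere.

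Of the promoters in the RefSeq table (GRCm38.p6), 9 belonged to 7 of the member genes, and those of Bpifb1, of Krt12 and Krt14, which peaked in the same arrays, and of Krt8 are shown because these genes stand for the different patterns. Each sequence gives the 250 bases before the start of the gene, 5′ to 3′ on the strand of the gene, with capitals for motif matches on either strand. The TATA box was searched as TATAAA. The AP-1 motif was searched as TGANTCA and the STAT type motif as TTCNNNGAA. The KLF type motif was searched as CCACCC, and the NF-kappaB type motif is given by its name. Bpifb1 is at chr2:154190568-154190817 (plus strand), Krt12 at chr11:99422260-99422509 (minus strand), Krt14 at chr11:100206031-100206280 (minus strand) and Krt8 at chr15:102004343-102004592 (minus strand).
Bpifb1: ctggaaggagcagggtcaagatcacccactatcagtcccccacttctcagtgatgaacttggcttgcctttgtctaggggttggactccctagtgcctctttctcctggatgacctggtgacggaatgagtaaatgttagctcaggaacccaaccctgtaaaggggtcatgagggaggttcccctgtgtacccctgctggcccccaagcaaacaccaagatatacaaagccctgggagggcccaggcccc
Krt12: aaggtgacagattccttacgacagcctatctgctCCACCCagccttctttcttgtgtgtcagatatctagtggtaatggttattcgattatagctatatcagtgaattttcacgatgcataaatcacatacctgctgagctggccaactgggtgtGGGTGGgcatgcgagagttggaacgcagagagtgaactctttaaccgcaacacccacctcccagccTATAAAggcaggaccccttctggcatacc
Krt14: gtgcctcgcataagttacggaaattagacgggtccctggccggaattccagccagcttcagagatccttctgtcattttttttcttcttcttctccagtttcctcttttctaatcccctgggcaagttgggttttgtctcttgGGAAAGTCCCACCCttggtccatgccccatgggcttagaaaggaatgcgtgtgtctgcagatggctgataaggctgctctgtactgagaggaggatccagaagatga
Krt8: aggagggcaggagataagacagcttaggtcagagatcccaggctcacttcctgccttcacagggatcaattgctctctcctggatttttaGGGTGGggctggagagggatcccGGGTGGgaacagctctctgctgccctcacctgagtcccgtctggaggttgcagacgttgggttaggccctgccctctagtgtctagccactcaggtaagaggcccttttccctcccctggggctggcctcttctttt

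Krt12 had a TATA box that begins 29 bases before the start, which 12.4% of all 32851 promoters hold in the same window, and 2 KLF type matches, a motif that 28.1% hold. Krt14 had a KLF type match that overlaps an NF-kappaB type match (1.41% of all promoters hold the latter). Krt8 had 2 KLF type matches. The window of Bpifb1 shown held none of the 5 motifs, while the one before its downstream start held 2 KLF type matches and a STAT type match (7.02% of all promoters). AP-1 matches, which 6.75% of all promoters hold, were found before both starts of Krt13. The matches describe the letters in these windows and no factor was measured.

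Few other genes of the surface epithelium passed the test between the ages, while many peaked in the same arrays. Of 35 measured genes of cornea and conjunctiva (37 listed), 1 was higher and 2 were lower at an adjusted p under 0.05, where 11.8% of all genes were higher and 9.56% lower. The median log2 difference was -0.07, beside -0.02 over all genes. Anxa8, an annexin of epithelia, rose with a log2 difference of 0.54 (limma adjusted p = 0.0106), its means being 125 ± 20.0 in young and 180.3 ± 15.2 in old arrays (SD, n = 4 each). Jup, the junction protein plakoglobin, fell by 0.33 (adjusted p = 0.0122), and Gpha2, a glycoprotein hormone subunit found at the corneal limbus, fell by 0.335 (adjusted p = 0.0333), all from limma. When replicate 4 of both ages was left out, 3 genes of the list were higher and 0 lower, and Jup and Gpha2 no longer passed, with log2 differences of -0.30 and -0.29. Over all probe sets 2372 were then higher and 1969 lower. Of the 35 genes, 18 (51.4%) were highest in replicate 4 in both ages, against 7.68% of all genes, and 5 were over 2-fold above the other arrays in both. In the lists given below, 6 of 12 genes of simple epithelium and mesothelium and 8 of 20 other type II keratins were also highest there. So were 6 of 20 junction genes and 3 of 10 plakins and partners. The counts were 3 of 19 other type I keratins, 2 of 21 innate defence, 1 of 22 secretory and 1 of 19 RPE genes. Among epidermis and BPI fold genes there were 0. Some genes, such as Upk1b, are in more than 1 list. The peak was thus not particular to the surface list. Muc4, a membrane mucin of the ocular surface, read 564 in young replicate 4 and 633 in old replicate 4 and 48.5 to 150 elsewhere. Aldh3a1, the abundant aldehyde dehydrogenase of the cornea, read 496, 509, 472 and 1627 in young and 1109, 1103, 946 and 1122 in old arrays.

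The keratins that are not members followed no single course. Of the 40 other keratin genes measured, 2 were higher and 6 lower in old animals, where 11.8% of all genes were higher and 9.56% lower. Krt75, a type II keratin of hair follicles and nails, rose with a log2 difference of 0.95 ± 0.13 (limma standard error, adjusted p = 0.00173), with means of 144 ± 28.2 in young and 273 ± 14.2 in old arrays (SD, n = 4 each). Krt25, a hair sheath keratin, rose by 0.34 (adjusted p = 0.0169 from limma), with intensities of at most 19.9. The 6 that fell were Krt23, Krt35, Krt73, Krt86, Krt78 and Krt81, with log2 differences of -0.46, -0.43, -0.41, -0.28, -0.20 and -0.175. Counted by type, 1 of 20 other type II genes was higher and 4 were lower, and 1 of 19 other type I genes in the list was higher and 2 were lower, with median log2 differences of -0.09 and -0.11. After median centring 2 type II genes were lower, without Krt78 and Krt81, while over all probe sets the lower ones went from 3939 to 3023. Krt6b and Krt7 were the non-member keratins over 2-fold above the other arrays in replicate 4 of both ages.

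In the lists of other epithelia the shares that passed are to be read against the 11.8% of all genes higher and 9.56% lower. Of 12 genes of keratinized epidermis, 1 was higher, Lce1a1 of the cornified envelope (log2 difference 0.26, adjusted p = 0.0459), and 3 were lower, the envelope protein loricrin (Lor), the protease Casp14 and the transglutaminase Tgm3, with log2 differences of -0.38, -0.29 and -0.30 and a list median of -0.11. None of the 12 was highest in replicate 4 of both ages. Of 20 genes of epithelial junctions and identity, 0 were higher and 1, the transcription factor Grhl2, was lower (log2 difference -0.33, adjusted p = 0.0192), with a median of -0.07. Of 12 genes of simple epithelium and mesothelium, Upk3b, a uroplakin of mesothelium, rose by 0.54 (adjusted p = 0.0294), and Krt23 and the membrane glycoprotein Gpm6a fell by 0.46 and 0.20, with a median of 0.01. Of 10 plakins and filament partners, the linkers Plec and Dst rose by 0.535 and 0.28 (adjusted p = 0.00273 and 0.0286), with a median of -0.01. All p-values are from limma.

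Genes of secretory epithelia and of the BPI fold family were set beside Bpifb1 because of its known source and its relatives. Of 22 secretory genes, 3 were higher and 0 lower, where 11.8% of all genes were higher, and 1 of the 3, Lyz1, is also in the innate defence list. Cyp2f2, a cytochrome P450 of airway secretory cells, rose by 0.70 (adjusted p = 0.00344), Scgb1a1, the secretoglobin of the same cells, by 0.31 (adjusted p = 0.00951) and Lyz1, a lysozyme, by 0.26 (adjusted p = 0.00954), all from limma. Scgb1a1 was dim, at 61.5 ± 1.66 (SD, n = 4) in young and 76.4 ± 5.16 (SD, n = 4) in old arrays, and the mucin genes Muc5ac and Muc5b did not pass, with log2 differences of -0.12 and 0.07. The summed intensity of this list ranged over 19291 to 19890 at the young and 22121 to 23172 at the old age, most of it from Lyz1. Mean Lyz1 intensity was 12779 (young) and 15254 (old). For Lyz2, another lysozyme gene of the innate defence list, the mean was 11280 (young) and 15105 (old). Whether the Lyz1 probe set also detects Lyz2 RNA, and which cells gave the higher sum, was not tested. Aqp5, a water channel of glands and the corneal epithelium, read 352 in young replicate 4, 172 in old replicate 4 and 54.2 to 74.1 elsewhere.

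Of 11 measured relatives in the BPI fold family (16 listed), Lbp rose and Pltp fell, and the other 9 did not pass. Over all genes 11.8% were higher and 9.56% lower. Lbp, the lipopolysaccharide binding protein, rose with a log2 difference of 0.76 ± 0.07 (limma standard error, adjusted p = 0.00023), with means of 1297 ± 129 in young and 2193 ± 53.2 in old arrays (SD, n = 4 each). Pltp, the phospholipid transfer protein, fell from 9111 ± 289 (SD, n = 4) to 7670.1 ± 200.1 (SD, n = 4), by 0.25 (adjusted p = 0.0108 from limma). Bpifa1, Bpifb5 and Bpifa5, which lie near Bpifb1 on the chromosome, read 23.3 to 30.7, 50.9 to 64.4 and 107 to 126 over the 8 arrays.

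Of 21 genes of secreted innate defence, 13 were higher, as Bpifb1 was, 0 were lower and 8 did not pass. Among the 8, Slpi, Pigr, Reg3g and Ltf are also in the secretory list, with log2 differences of -0.01, -0.12, -0.36 and 0.96. For Defb1, Orm2, Pglyrp1 and S100a9 the log2 differences were 0.19, 0.18, 1.02 and 2.23. Over all genes 11.8% were higher and 9.56% lower. The median log2 difference of the list was 0.96, beside -0.02 over all genes. The difference between the ages was already known for several of the 21 genes when the list was written, so their direction is not independent evidence. Orm1, an acute phase glycoprotein, ranged over 34.6 to 54.2 at the young and 399 to 1006 at the old age, with old replicate 1 the lowest of the old. S100a8, a calcium-binding protein of neutrophils, read 7828 in old replicate 2, where old replicates 1, 3 and 4 read 346 to 888, whereas Bpifb1 was at 1529, 1499 and 1436 in old replicates 2, 3 and 4. Both genes were highest in old replicate 2 and lowest of the old in old replicate 1. Chil3, a chitinase-like protein of macrophages, and Lcn2, an iron carrier binding protein, rose by 2.74 and 2.21 (adjusted p = 0.0446 and 0.00732 from limma). Chil3 was at 106 in old replicate 1, within the young range of 95.6 to 141. The mean centred log2 value of the list ran from -0.69 to -0.42 in young arrays and was -0.06, 1.20, 0.57 and 0.50 in old replicates 1 to 4, the first of which also had the lowest old value of Bpifb1. Whether the same cells gave these transcripts was not tested.

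**Figure D4:**
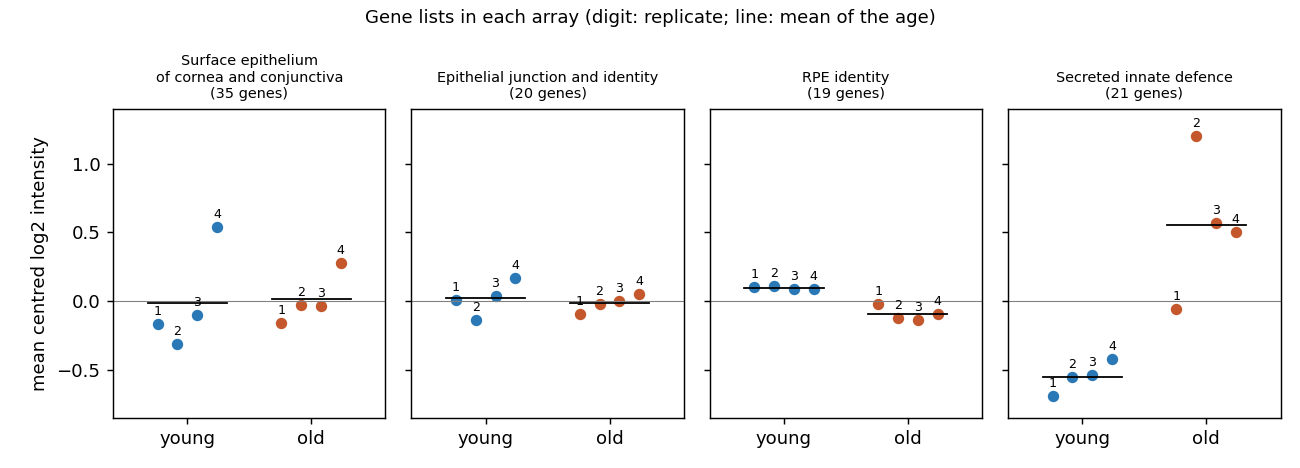
Mean log2 intensity of 4 gene lists (vertical axis, centred gene by gene) in young and old arrays, with the replicate number beside each point and a line at the mean of the age. The surface epithelium list is at 0.54 in young replicate 4 and 0.27 in old replicate 4, and the innate defence list is higher in all old arrays.

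Of 19 RPE genes measured (20 listed), 11 were lower, as Krt8 was, 0 were higher and 8 did not pass. Over all genes 9.56% were lower and 11.8% higher. The median log2 difference of the list was -0.20. After median centring of the arrays 6 RPE genes were lower, while over all probe sets the lower ones went from 3939 to 3023. Trpm1, a cation channel of melanocytes and bipolar cells, fell by 0.53 (adjusted p = 0.032), Kcnj13, a potassium channel of the RPE, by 0.42 (adjusted p = 0.0037), Tyr, the enzyme that begins melanin synthesis, by 0.41 (adjusted p = 0.00343) and Pmel, the fibril protein of melanosomes, by 0.35 (adjusted p = 0.0184), all from limma. The mean centred log2 value of the list ranged over 0.09 to 0.11 at the young and -0.14 to -0.03 at the old age, and its summed intensity over 155960 to 157980 and 131320 to 144650. The other lower genes were Rlbp1, Rdh5, Lrat, Tyrp1, Dct, Mlana and Otx2. Rpe65, Rgr, Ttr, Mitf and Ermn did not pass, with log2 differences of -0.06, -0.085, -0.07, -0.17 and -0.22. Best1, Stra6 and Slc16a3 did not pass either, at 0.06, 0.07 and 0.23. Which cells gave these transcripts was not tested. No RPE gene read below 143. The part of these genes in the difference of Krt8 was not tested, and in RNA from whole tissue fewer cells of a type and less RNA per cell cannot be told apart. Without young replicate 4 and old replicate 4, with 3 arrays per age, 4 RPE genes were lower and 7 innate defence genes were higher. Over all probe sets 2372 were then higher and 1969 lower.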

How the data were processed

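RPE/choroid RNA of 4 young and 4 old samples was measured on Affymetrix whole-genome mouse arrays. The authors deposited 1 linear intensity per probe set and array, already normalized. The study's methods name RMA, invariant set normalization in Dchip and BRB-ArrayTools, and do not say which gave this table. Array medians were 129 to 135. Arrays have no read depth, and their number limits the precision.

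Intensities were floored at 1 and taken to log2. R 4.3.3 and limma 3.58.1 (lmFit, eBayes) were fitted to 45037 probe sets without the 64 controls, old against young, with Benjamini-Hochberg adjustment. The standard errors given are limma's. Each gene is represented by its brightest probe set (mean log2 over arrays). Genes were named from the platform annotation, in which 34945 probe sets name 1 gene, 932 several and 9160 none. Keratins are similar in sequence, and cross-hybridization between them was not tested. Age-centred correlations are given as a description, because the keratin values were known when the members were chosen; the permutation test planned for them is not reported. The fit and the correlation code were tested on simulated data.

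Members, lists and tests were chosen with earlier results of these data known. The named genes are the members, in each list the up to 4 genes past an adjusted p of 0.05 with the largest difference and every gene of a count of 5 or fewer, and the 5 genes most correlated with Bpifb1 and with Krt12. Keratins and BPI fold genes could be named as families. Muc4, Aldh3a1, Aqp5, Muc5ac, Muc5b, Lyz2 and Upk1b were named after their values were seen. So were the innate defence genes that did not pass and the RPE genes other than Trpm1, Kcnj13, Tyr and Pmel. Alternatives were quantile normalization, median centring, other floors, a filter on low values, other variance estimates, array weights, other probe sets, the replicate number as a block and leaving out arrays. Deviations from the age mean over all probe sets correlated between same-numbered arrays at 0.0971, 0.0190, 0.0218 and 0.0427 for replicates 1 to 4. Only for replicate 1 was the same number the highest match. Such values cannot tell whether same-numbered arrays were handled together, and this was not tested. Leaving out young replicate 4 and old replicate 4 was chosen after seeing the data.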

Additional observations from a re-analysis of the deposited data

Results flagged for a closer look

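Among the member genes by age, 18 groups of 4 arrays were examined for an array far from the others, by its gap to the nearest array divided by the range of log2 values. In 4 groups this share was above Dixon's critical value for 4 arrays, a level that chance passes in about 1 of 20 groups. These array values were known when the genes were chosen, so nothing is read from the number of groups. In young arrays it was 0.864 for Krt5, 0.878 for Krt14 and 0.844 for Krt12, each time for young replicate 4, which was the highest. In old arrays it was 0.868 for Bpifb1, for old replicate 1, which was the lowest at an intensity of 949. No group of old arrays was above it for a keratin, although replicate 4 was the highest old array for all 5 surface keratins.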

How the results depend on the processing

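The 2.75 given for Bpifb1 is its second probe set. Leaving out 1 array at a time gave log2 differences of 3.14 to 3.41 for Bpifb1, -0.300 to -0.213 for Krt8 and -0.53 to 1.28 for Krt12. The member probe sets past an adjusted p of 0.05 numbered 5 with all arrays, 3 after median centring and 3 to 5 with 1 array left out. They numbered 3 without young replicate 4 and old replicate 4, and 2, both of Bpifb1, with the replicate block. It is not known whether the replicate numbers pair the samples. The 2 that changed more than 2-fold with adjusted p below 0.01 stayed at 2 under every alternative run.

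Over all probe sets, 4154 were higher and 3939 lower. With 1 array left out these were 2827 to 4284 and 2135 to 4030, the fewest lower ones being 2398, 2183, 2523 and 2135 without young replicates 1, 3 and 4 and old replicate 3. Without young replicate 4 and old replicate 4 they were 2372 and 1969. Median centring gave 4819 and 3023, quantile normalization 3984 and 4227. Of 180 list genes, 23 were higher and 25 lower, 16 to 26 and 13 to 24 with 1 array left out, and 14 and 8 without both replicates 4. Of the 33 list genes named by the rule for genes that passed, 0 changed direction in any alternative. Without both replicates 4 (3 arrays per age) 20 no longer passed, and 10 passed under every alternative. The cause was not tested.

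Among the correlations (Pearson's r) with Bpifb1, Krt18 changed sign to 0.0829 with quantile normalization and 0.15 without both replicates 4, where Krt14 and Krt19 were at -0.0448 and -0.143. With 1 array left out, r ranged from -0.666 to 0.562 for Krt8, -0.745 to 0.329 for Krt18, 0.113 to 0.617 for Krt19, 0.364 to 0.719 for Krt5, 0.16 to 0.781 for Krt14, 0.318 to 0.66 for Krt15, 0.544 to 0.757 for Krt12 and 0.212 to 0.702 for Krt13.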
